A study of Mus musculus with 12 samples.

Results

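The mitochondrial carrier family Slc25 was examined in mouse liver libraries labelled Ribo-seq, an assay of ribosome footprints. The members were every gene of the Ribo-seq table whose symbol is Slc25a followed by a number, except Slc25a20, which gave 46 of 25029 genes. The libraries came from livers of male C57BL/6 mice aged 16 weeks that had been on a high-fat diet for 8 weeks, either alone (HFD, 3 libraries) or with lycopene in the same feed (LYC, 3 libraries). Lycopene is the red carotenoid of tomatoes, and the question was which carriers were translated more or less in its presence. All 6 Ribo-seq libraries carried the high-fat diet, and no library of the standard feed was analysed here. Lycopene in the LYC feed is known from the titles and the design text, as the treatment label gives the same high-fat diet for both groups. The labels also mention pooling of material before library construction, so p-values measure the spread between these libraries, which may be partly technical.

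Carriers of this family are small proteins of the inner mitochondrial membrane that exchange nucleotides, phosphate, carboxylates, amino acids and cofactors between the cytosol and the matrix. In liver they serve ATP export, citrate export for fat synthesis, the malate-aspartate shuttle and the urea cycle. A few members lie elsewhere: Slc25a17 is in peroxisomes, and Slc25a46 is in the outer mitochondrial membrane.

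The deposited values were RPKM (reads per kilobase of gene, scaled to sequencing depth). The reads behind them were recovered from the size of the RPKM steps and gave library totals between 834410 and 4405541 for HFD and between 311050 and 412116 for LYC. A single read (1 read) at a length of 1 kb equalled 0.227 to 1.20 RPKM in HFD libraries, against 2.43 to 3.21 RPKM in LYC libraries. Depth therefore differed with the group, and an effect of depth on low members cannot be told apart from one of the feed. For the same reason, numbers of reads are given only to show what a level rests on, and levels are compared in RPKM. The study also has 6 libraries labelled RNA-seq, and in those of LYC 28 of 34, 28 of 34 and 27 of 32 members above 0 had the same number of reads as in the Ribo-seq library of the same number. Whether the reads of the libraries labelled Ribo-seq are footprints or mRNA was therefore not tested and cannot be told from these tables, and the values below are levels in those libraries. The summed RPKM of 6 hepatocyte markers was 38700 to 42217 in HFD and lower, without overlap, in LYC at 27626 to 34819. These are sums of unscaled RPKM, and in the limma test 1 of the 6 markers was called higher in LYC and 0 lower. Kupffer cell and macrophage markers summed to 102 to 138 in HFD and 85.8 to 164 in LYC, endothelial markers to 52.0 to 70.8 and 11.9 to 102, and stellate cell markers to 16.2 to 28.6 and 7.66 to 26.2. Cholangiocyte markers summed to 4.36 to 5.09 in HFD and 0.775 to 2.34 in LYC, on 1 to 64 reads per library. Erythroid markers summed to 322 to 652 and 504 to 648, with 1 of 2 tested markers called higher in LYC, skeletal muscle markers to 34.3 to 58.7 and 21.0 to 45.0, and of the adipocyte markers Plin1 and Ucp1 were at 0 in all libraries. The part of these shifts in the results below was not tested, and fewer cells of a type cannot be told apart from less RNA per cell.

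Of the 46 members, 43 were above 0 in at least 1 library and 27 in all 6. Slc25a41, Slc25a43 and Slc25a54 were at 0 in every library. Of the reads on listed genes, the family took 0.323%, 0.439% and 0.405% in HFD1, HFD2 and HFD3, against 0.230%, 0.367% and 0.269% in LYC1, LYC2 and LYC3. These shares overlapped between the groups, since LYC2 lay above HFD1. Their RPKM summed to 1294, 1834 and 1555 in HFD and to 991, 1550 and 1114 in LYC. In each library the 3 leading members held 40.9% to 49.5% of that sum, and the 10 leading members held 78.4% to 85.3%.

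**Figure D1:**
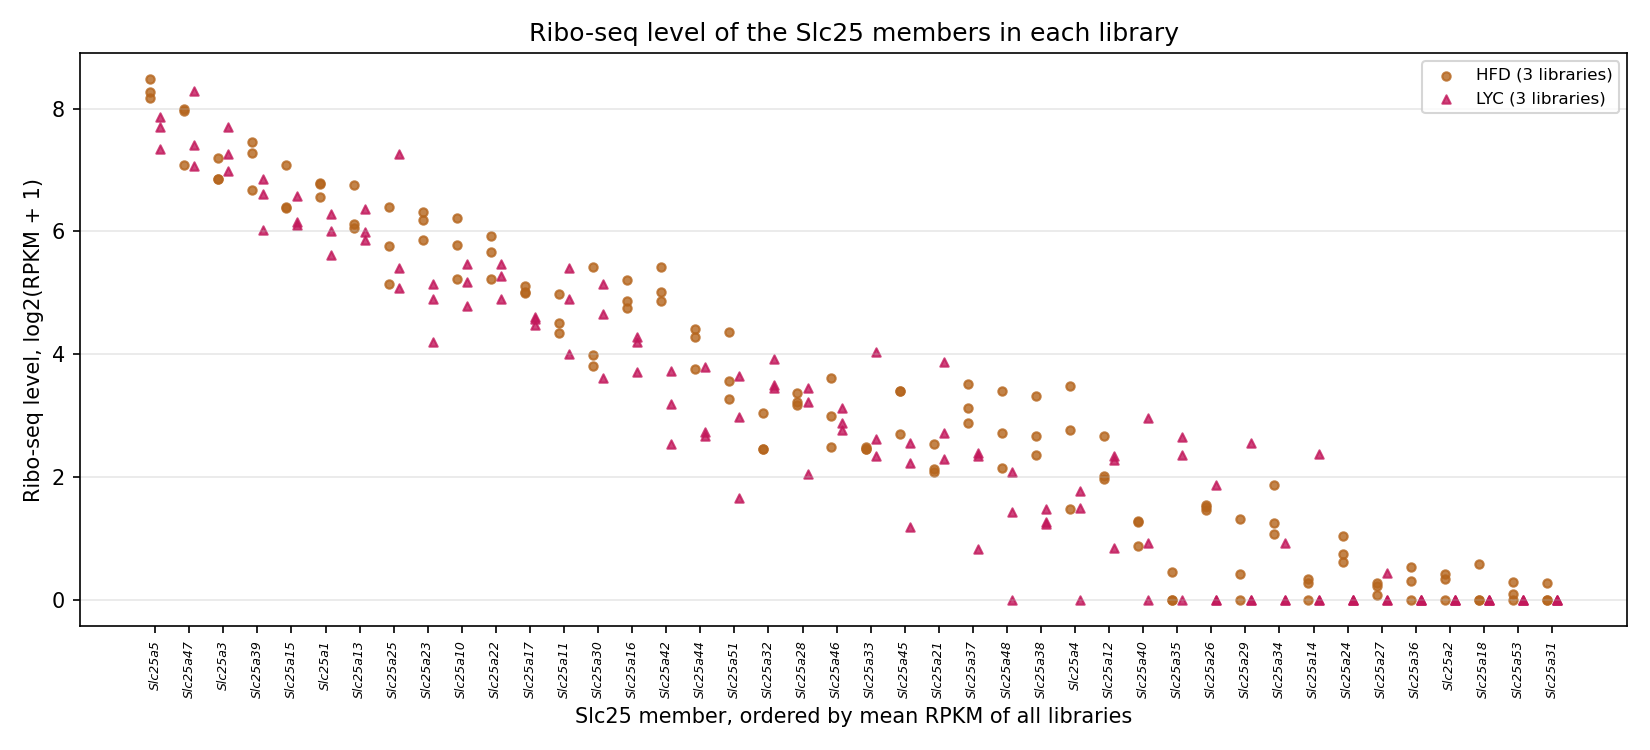
Level in each Ribo-seq library of the members above 0 that are named here, as log2(RPKM + 1) on the vertical axis, with members ordered along the horizontal axis by their mean RPKM over the 6 libraries. Circles are the 3 HFD libraries and triangles the 3 LYC libraries. Slc25a5, Slc25a47 and Slc25a3 head the order, and towards the right more libraries sit at 0, LYC libraries above all.

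The order of levels was led by Slc25a5, the main ADP/ATP carrier of dividing and liver cells, in HFD1, HFD2, HFD3 and LYC1, and by Slc25a47, a carrier found almost solely in liver, in LYC2 and LYC3. In HFD the mean RPKM was 316 for Slc25a5, 212 for Slc25a47, 144 for Slc25a39, 125 for Slc25a3 and 104 for Slc25a1. Down to rank 20 of the HFD order, all libraries of a member lay above those of the next at 2 places, between Slc25a5 and Slc25a47 and between Slc25a3 and Slc25a1. The other neighbours overlapped. In LYC the mean RPKM was 204 for Slc25a47, 199 for Slc25a5, 162 for Slc25a3 and 91.3 for Slc25a39. There the libraries were apart between Slc25a3 and Slc25a39, between Slc25a1 and Slc25a22 and between Slc25a17 and Slc25a16, and the other neighbours of the first 20 overlapped.

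For the comparison of LYC with HFD, 21 members had enough reads to be tested in the limma fit over 5775 genes. A gene was called when its log2 fold change passed 1 in either direction with an unadjusted p below 0.01. Log2 fold changes are on the scale of log2(RPKM / TMM factor + 1), LYC minus HFD, where the TMM factor corrects each library for composition. Of these 21 members, 3 were called, 2 lower in LYC (Slc25a42 and Slc25a23) and 1 higher (Slc25a32). Over all genes tested, 13.3% were called, 6.30% lower and 7.00% higher, so the number of members called was close to the background and is by itself no result about the family. The edgeR and DESeq2 tests on recovered reads called the same 3 members. Below an unadjusted limma p of 0.05, Slc25a16 (lower) and Slc25a3 (higher) joined them, and none of the other members tested, where 14.9% of all genes tested were lower and 15.0% higher at that limit. All 3 called members had a Benjamini-Hochberg adjusted p below 0.05 over all genes tested, a limit that 11.5% of these genes met. The median log2 fold change was -0.21 over the members tested and -0.10 over all genes tested, with 13 members below 0 and 8 above, where 55% of all genes tested were below 0. Both medians moved with the scaling, to -0.49 and -0.36 by library totals.

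Slc25a42, the carrier that brings coenzyme A into the matrix, was lower in LYC. Its RPKM was 28.2, 41.9 and 31.4 in HFD1, HFD2 and HFD3, and 4.80, 8.11 and 12.2 in LYC1, LYC2 and LYC3. Every LYC library lay below every HFD library. The mean was 33.8 ± 7.15 (SD, n = 3) under HFD, against 8.38 ± 3.73 (SD, n = 3) under LYC. These levels rested on 244, 585 and 83 reads for HFD, but only 6, 8 and 16 for LYC. The log2 fold change was -1.68 (SE 0.33, 95% interval -2.43 to -0.93), with a limma p of 0.000721 and an adjusted p of 0.0162. It was called in 6 of 6 fits that left out 1 library. Slc25a42 passed the filter on low reads only with its HFD libraries, where it was higher, as too few LYC libraries reached the limit. With no filter it was still called (limma p 0.00116, adjusted p 0.0334). Over all alternatives its adjusted p in limma, edgeR or DESeq2 ran from 0.000206 to 0.0745. The gene lies at chr8:70184340-70212281 on the minus strand of GRCm38, and no other annotated gene overlaps it.

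Slc25a23, a calcium-regulated carrier that exchanges ATP-Mg for phosphate, was also lower in LYC. Its RPKM was 57.2, 78.5 and 72.0 under HFD, against 17.3, 34.4 and 28.9 under LYC, again with no overlap. The means were 69.2 ± 10.9 (SD, n = 3) and 26.9 ± 8.71 (SD, n = 3), on 1889 reads in HFD and 99 in LYC. The log2 fold change was -1.09 (SE 0.26, 95% interval -1.69 to -0.48), with a limma p of 0.00288 and an adjusted p of 0.0336. The size is close to the limit of 1, and the call was lost without HFD2 (-1.15), without HFD3 (-1.04), without LYC1 (-0.90), with a pseudocount of 5 (-0.99) and with p below 0.001, while the direction was the same. Over all alternatives the adjusted p in limma, edgeR or DESeq2 ran from 0.00151 to 0.135. The gene lies at chr17:57043711-57059909 on the minus strand, and Gm17168 and Crb3 overlap it on the opposite strand. Whether the counting used strand is not given in the sources used here, so reads of these genes cannot be told apart from its own.

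Slc25a32, the carrier of folate and FAD, was higher in LYC. Its RPKM was 4.48, 7.25 and 4.48 in HFD1, HFD2 and HFD3, and 10.3, 14.2 and 9.89 in LYC1, LYC2 and LYC3. All LYC libraries lay above all HFD libraries. The means were 5.40 ± 1.60 (SD, n = 3) and 11.5 ± 2.37 (SD, n = 3). In reads this was 36, 94 and 11 under HFD against 12, 13 and 12 under LYC, so the level in LYC rested on few reads. In the libraries labelled RNA-seq its RPKM was 6.53, 4.64 and 4.22 under HFD against 6.05, 7.58 and 5.93 under LYC, where the groups overlapped. The log2 fold change was 1.23 (SE 0.30, 95% interval 0.56 to 1.91), with a limma p of 0.00268 and an adjusted p of 0.0323. The call was lost without HFD1 or HFD3 (1.15 in each fit), when RPKM was used with no further scaling (0.97), with a pseudocount of 5 (0.85) and with p below 0.001. Slc25a32 passed the filter on low reads only with its LYC libraries, where it was higher, as too few HFD libraries reached the limit. With no filter Slc25a32 was still called (limma p 0.00354, adjusted p 0.0552). Over all alternatives the adjusted p in limma, edgeR or DESeq2 ran from 0.0104 to 0.136. The gene lies at chr15:39091230-39112720 on the minus strand, with no other annotated gene over it.

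**Figure D2:**
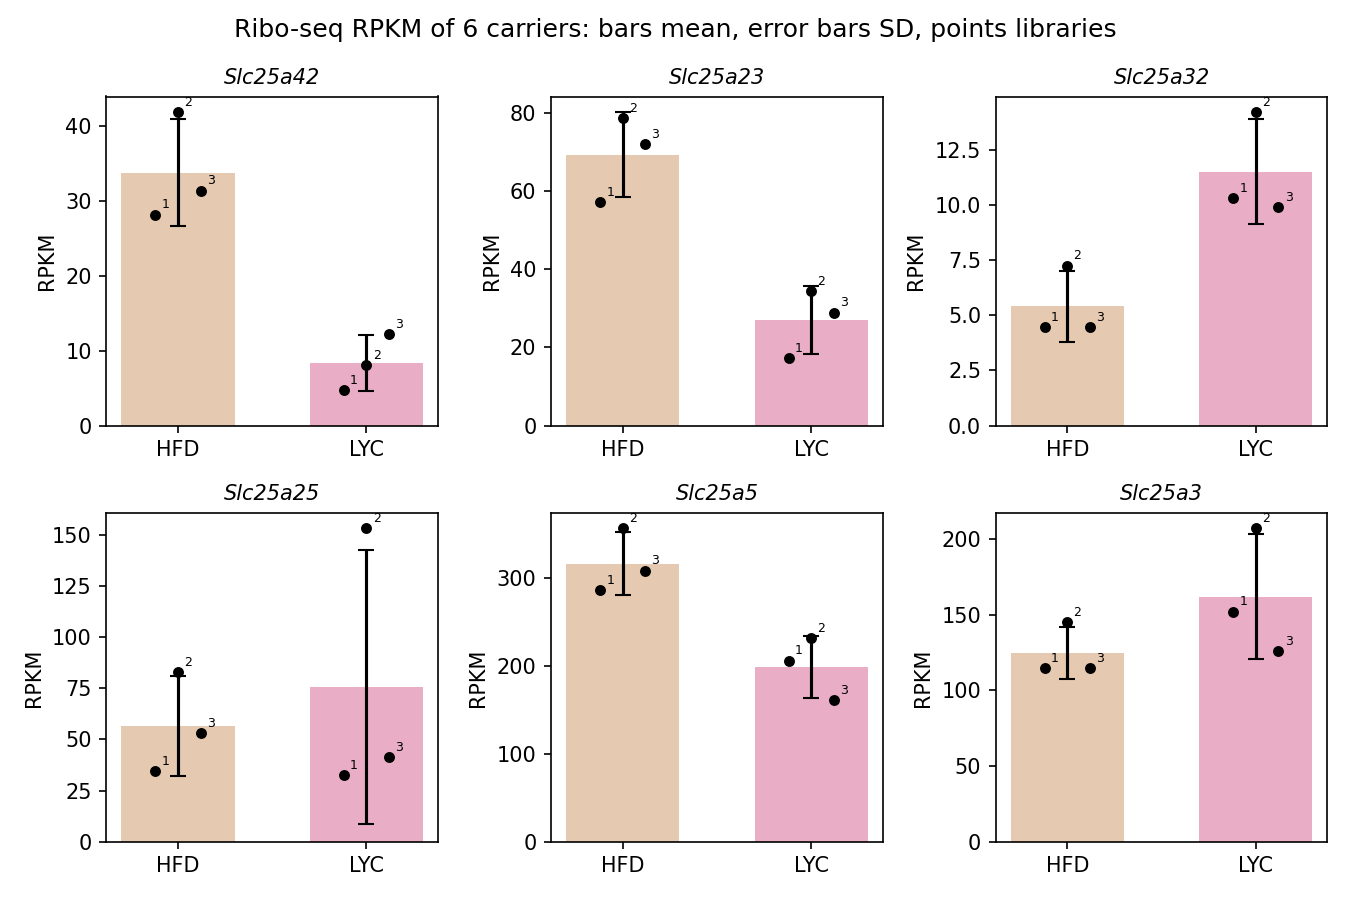
Ribo-seq RPKM of the 3 called carriers (top row) and of Slc25a25, Slc25a5 and Slc25a3 (bottom row), each panel with its own linear axis from 0. Bars are means of 3 libraries, error bars are SD and numbered points are the libraries of HFD and LYC. Slc25a42 and Slc25a23 are lower and Slc25a32 higher in every LYC library, and LYC2 alone lifts the LYC mean of Slc25a25.

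Promoter sequence was compared for the 35 members with an entry in the RefSeq promoter table (GRCm38.p6), in windows from 250 bases before to 50 after each listed start. Stretches of 200 bases are printed for both called carriers that had such an entry, and 30 bases around a match for Slc25a25, the paralogue of Slc25a23 described below. They read 5′ to 3′ along the gene, upstream of a listed start. Capitals mark CCAAT or its reverse complement in Slc25a42, the reverse complement of GGGCGG in Slc25a23, and TGACGTCA in Slc25a25. Only these are marked, and the Slc25a23 stretch also holds CCAAT and the Slc25a42 stretch the reverse complement of GGGCGG. The stretch of Slc25a42 is chr8:70212282-70212481, that of Slc25a23 chr17:57059910-57060109 and that of Slc25a25 chr2:32424198-32424227, all on the minus strand.
Slc25a42: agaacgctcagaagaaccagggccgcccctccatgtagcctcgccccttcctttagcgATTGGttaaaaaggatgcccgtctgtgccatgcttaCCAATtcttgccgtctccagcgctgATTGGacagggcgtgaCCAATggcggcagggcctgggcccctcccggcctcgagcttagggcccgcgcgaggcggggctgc
Slc25a23: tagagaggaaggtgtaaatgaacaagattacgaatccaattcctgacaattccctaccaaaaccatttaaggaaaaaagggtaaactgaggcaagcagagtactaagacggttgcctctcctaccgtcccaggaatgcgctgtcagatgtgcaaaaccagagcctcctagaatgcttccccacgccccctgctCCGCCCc
Slc25a25: tctgcaagcagTGACGTCAgtcctgatctt
The Slc25a42 stretch held 4 CCAAT matches, 142, 106, 81 and 65 bases before the start, of which 2 were on the strand shown. Of its 200 bases, 24 fall in exons annotated by GENCODE. The GGGCGG match of Slc25a23 began 53 bases before the start, which is 1 of 2 listed for the gene. TGACGTCA of Slc25a25 began 150 bases before the start, 1 of 3 listed, and this start lies inside the annotated span of the gene.

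Matches were sought on both strands in all 32851 promoter windows of mouse genes and in the 45 windows of the 35 members with an entry. GGGCGG, the GC box that Sp1 binds, was in 82.2% of the members' windows and in 35.7% of all windows. CCAAT, the box of NF-Y, was in 48.9% and 37.4%. TATAAA was in 4.44% of the members' windows, those of Slc25a18 and Slc25a21, and in 13.6% of all. CACGTG, the E-box, was in 17.8% and 7.15%, and CCGGAAG, an ETS motif, in 13.3% and 8.86%. TGACGTCA, the CREB site, was in 4.44% (Slc25a25 and Slc25a36) and 1.79%. AAGGTCA was in 2.22% and 4.72%, and the palindromic core of the NRF1 site in 4.44% and 4.60%. None of these motifs contains another, but windows of one gene can overlap, so the shares are a description only.

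Among the carriers of adenine nucleotides and phosphate, 4 of 8 members were tested and Slc25a23 was the one called. Slc25a5 had an RPKM of 286, 356 and 308 in HFD and of 206, 231 and 161 in LYC. Its RPKM did not overlap between groups, but the log2 fold change after TMM scaling was -0.38 (95% interval -0.90 to 0.14), with a limma adjusted p of 0.301. That change was -0.67 by library totals and -0.24 without LYC3, and the gene was called in neither fit. Slc25a3, the phosphate carrier, was at 115, 145 and 115 in HFD and at 152, 207 and 126 in LYC. The lowest LYC library lay below HFD2. Its log2 fold change was 0.64 (95% interval 0.11 to 1.18), with a limma adjusted p of 0.113. That p ran from 0.0314 to 0.410 over the alternatives in limma, edgeR or DESeq2, and the gene was not called. Slc25a3 spans chr10:91116574-91124046 with a small nucleolar RNA, Gm24119, inside it on the same strand. Slc25a5 lies at chrX:36795597-36798808, and near-identical pseudogene copies of it exist, among which the authors' counting may have split reads. Slc25a4, the ADP/ATP carrier of heart and muscle, had a mean of 5.93 RPKM in HFD and 1.41 in LYC on 73 and 2 reads, and the groups overlapped. Slc25a31, the carrier of germ cells, had 2 reads in HFD and none in LYC.

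Slc25a25, the paralogue of Slc25a23 with the same ATP-Mg exchange, had an RPKM of 34.4, 82.8 and 53.2 in HFD and of 32.7, 153 and 41.3 in LYC. LYC2 stood above the other 5 libraries, and the rest overlapped. Its log2 fold change was 0.44 (SE 0.50, 95% interval -0.70 to 1.58), with a limma adjusted p of 0.586, and it was -0.17 without LYC2. Naif1 overlaps the gene on the opposite strand. The pair was then set against each other within each library, a ratio chosen after the values had been seen. Slc25a25 made up 37.6%, 51.3% and 42.5% of the summed RPKM of Slc25a23 and Slc25a25 in HFD1, HFD2 and HFD3, and 65.4%, 81.6% and 58.8% in LYC1, LYC2 and LYC3. Slc25a23 was the larger in HFD1 and HFD3, Slc25a25 by a little in HFD2 and clearly in all LYC libraries, and the shares of the groups did not overlap. The mean share was 43.8% ± 6.96 (SD, n = 3) in HFD and 68.6% ± 11.7 (SD, n = 3) in LYC, 24.8 percentage points higher. This ratio does not depend on the scaling between libraries, but it contains Slc25a23, which was already called, and so is no separate evidence. Slc25a24, another carrier of this type, had 0.759 RPKM in HFD on 18 reads and none in LYC.

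**Figure D3:**
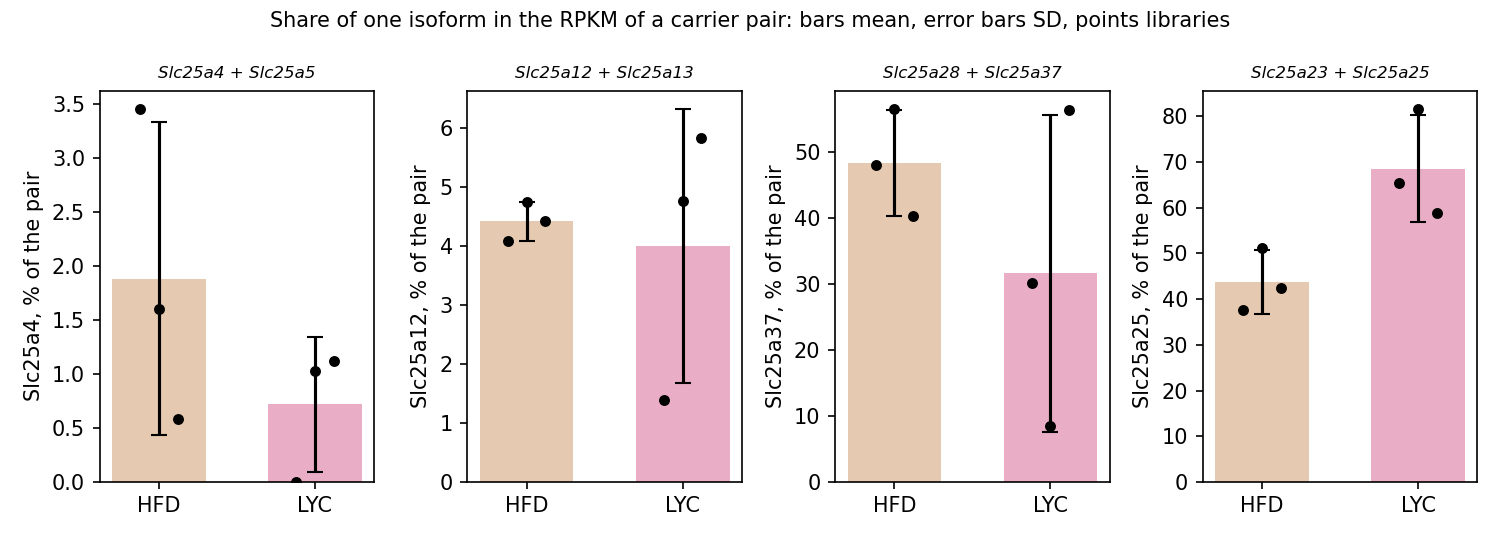
Share of one carrier in the summed RPKM of a pair of related carriers, in percent on the vertical axis, for Slc25a4 with Slc25a5, Slc25a12 with Slc25a13, Slc25a37 with Slc25a28, and Slc25a25 with Slc25a23. Bars are means of 3 libraries, error bars SD and points libraries. The groups are apart only in the last pair, with 37.6% to 51.3% in HFD and 58.8% to 81.6% in LYC.

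Among the carriers of cofactors and other nucleotides, 5 of 9 members were tested, and Slc25a42 and Slc25a32 were called in opposite directions. Slc25a16 had an RPKM of 25.9, 36.1 and 28.2 in HFD and of 12.1, 17.4 and 18.5 in LYC. No LYC value reached the HFD range, and the log2 fold change was -0.60 (95% interval -1.17 to -0.02), with a limma adjusted p of 0.158. Slc25a17, the peroxisomal carrier of coenzyme A and related cofactors, was at 31.2, 33.6 and 30.9 in HFD and at 22.8, 21.2 and 23.3 in LYC. The libraries of each group lay close together and apart from the other group in RPKM, but they overlapped after TMM scaling, with a log2 fold change of -0.21 (95% interval -0.77 to 0.36). That change was -0.49 by library totals, and with 1 library left out it ran from -0.32 (without HFD2) to -0.10 (without LYC2). Slc25a51, the NAD carrier, ran from 8.68 to 19.6 in HFD and from 2.17 to 11.5 in LYC, with a log2 fold change of -0.70 (95% interval -1.92 to 0.52). The S-adenosylmethionine carrier Slc25a26 and the pyrimidine nucleotide carriers Slc25a33 and Slc25a36 were not tested. Their mean RPKM was 1.85, 4.52 and 0.228 in HFD, on 28, 68 and 8 reads, and 0.881, 8.21 and 0 in LYC, on 2, 16 and 0 reads.

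The carriers of di- and tricarboxylates had 3 of 4 members tested and none called. Slc25a1, the citrate carrier that supplies cytosolic acetyl-CoA for fat synthesis, had an RPKM of 93.3, 110 and 108 in HFD and of 48.3, 63.2 and 76.6 in LYC. No LYC library reached the HFD libraries. Its log2 fold change was -0.44 (95% interval -0.98 to 0.09), with a limma adjusted p of 0.242 and a range from 0.0758 to 0.466 over the alternatives. Slc25a10, the dicarboxylate carrier, was at 36.4, 73.1 and 53.9 in HFD and at 26.6, 43.4 and 35.2 in LYC, and the groups overlapped (log2 fold change -0.31, 95% interval -0.93 to 0.32). That change was -0.59 by library totals, -0.54 without HFD1 and -0.20 with the length trend removed. Slc25a11, the oxoglutarate-malate carrier of the malate-aspartate shuttle, was at 21.7, 30.5 and 19.3 in HFD and at 15.0, 41.5 and 28.7 in LYC. Its LYC libraries lay on both sides of the HFD libraries, and the log2 fold change was 0.44 (95% interval -0.31 to 1.19), with 0.18 without LYC2 and 0.74 without LYC1. Slc25a21, which carries oxoadipate and oxoglutarate, was not tested, with a mean of 3.80 RPKM in HFD and 7.67 in LYC on 80 and 21 reads, and the groups overlapped.

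Among the amino acid carriers, 4 of 9 were tested and none was called. Slc25a13 (citrin), the aspartate-glutamate carrier of liver, had an RPKM of 68.2, 107 and 65.7 in HFD and of 56.9, 81.4 and 62.2 in LYC. Slc25a15, the ornithine carrier of the urea cycle, was at 83.3, 135 and 82.2 in HFD and at 67.5, 94.0 and 70.2 in LYC. For both the groups overlapped and HFD2 was the highest library. The log2 fold changes were 0.05 (95% interval -0.48 to 0.58) for Slc25a13 and -0.05 (95% interval -0.58 to 0.47) for Slc25a15. Both intervals lie inside the limits of 1 in either direction. The sign of each turned under some alternatives. Slc25a22, a glutamate carrier, was at 36.3, 60.0 and 49.5 in HFD and at 28.9, 37.8 and 43.2 in LYC, with a log2 fold change of -0.10 (95% interval -0.68 to 0.48). That change was -0.39 by library totals, and with 1 library left out it ran from -0.27 (without HFD1) to -0.03 (without LYC1). Slc25a44, the branched-chain amino acid carrier, ran from 12.6 to 20.2 in HFD and from 5.38 to 12.9 in LYC. Its log2 fold change was -0.81 (95% interval -1.68 to 0.06), and it was called only in the fit without LYC3. Slc25a12, the second aspartate-glutamate carrier, made up 4.09%, 4.75% and 4.43% of the summed RPKM of Slc25a12 and Slc25a13 in HFD and 1.39%, 4.77% and 5.83% in LYC, so Slc25a13 held the larger share in all 6 libraries. Slc25a38, the glycine carrier of haem synthesis, had a mean of 6.18 RPKM in HFD and 1.53 in LYC on 99 and 3 reads. Slc25a29, a carrier of basic amino acids, had 0.614 and 1.64 RPKM on 11 and 3 reads, with all 3 reads of LYC in LYC2.

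The carriers of iron and glutathione had 2 of 4 members tested and none called. Slc25a39, the glutathione carrier, had an RPKM of 101, 154 and 175 in HFD and of 63.9, 96.4 and 114 in LYC. LYC3 lay above HFD1, and the log2 fold change was -0.36 (95% interval -1.01 to 0.29), with -0.57 without HFD1 and -0.18 without HFD3. Slc25a37 (mitoferrin-1), the iron carrier best known from red cell precursors, ran from 6.33 to 10.4 in HFD and from 0.772 to 4.26 in LYC. Its log2 fold change was -1.06, but the 95% interval was -2.19 to 0.06 with a limma adjusted p of 0.190, on 15 reads in LYC. Slc25a37 made up 48.1%, 56.5% and 40.3% of the summed RPKM of Slc25a28 (mitoferrin-2) and Slc25a37 in HFD and 30.1%, 8.44% and 56.3% in LYC, where the pair had 5 to 13 reads per library. Slc25a40, a close relative of Slc25a39, was not tested, with a mean of 1.24 RPKM under HFD and 2.56 under LYC on 31 and 7 reads, 6 of these 7 in LYC2. The erythroid marker sums given above overlapped between the groups, and 1 of 2 erythroid markers tested was called higher in LYC. Those are sums of unscaled RPKM, and their bearing on Slc25a37 was not tested.

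Of the remaining members, Slc25a47 had an RPKM of 134, 249 and 254 in HFD and of 133, 311 and 169 in LYC. Both groups spread widely and overlapped, and the log2 fold change was 0.20 (95% interval -0.55 to 0.96). The microRNA gene Mir345 lies inside it on the same strand. Slc25a30, a carrier related to the uncoupling proteins, was at 41.7, 13.0 and 14.8 in HFD and at 34.2, 11.3 and 24.2 in LYC. HFD1 and LYC1 were its highest libraries, and the log2 fold change was 0.35 (SE 0.58, 95% interval -0.97 to 1.67). The related Slc25a14 had a mean of 0.158 RPKM in HFD and 1.40 in LYC on 3 reads each, and Slc25a27 had 0.146 and 0.118 RPKM on 7 reads and 1. Slc25a35, also not tested, had 0.124 RPKM under HFD and 3.15 under LYC on 3 and 6 reads, the latter from LYC1 and LYC2. Slc25a46 ran from 4.63 to 11.2 in HFD and from 5.84 to 7.72 in LYC, with a log2 fold change of 0.15 (95% interval -0.62 to 0.93).

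**Figure D4:**
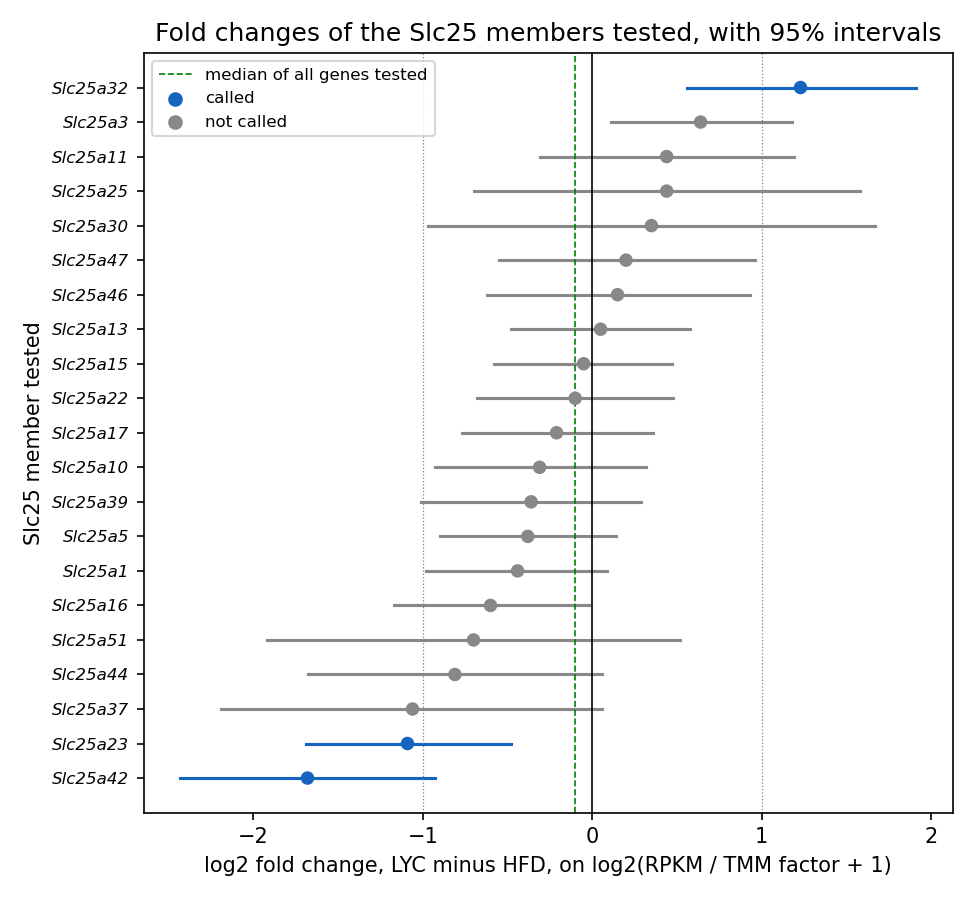
Log2 fold change of the 21 members tested, LYC minus HFD, on the scale of log2(RPKM / TMM factor + 1) along the horizontal axis, with 95% intervals from limma as horizontal lines and members ordered along the vertical axis. Dotted lines mark a log2 fold change of 1 in either direction and the dashed line the median of all genes tested, -0.10. Slc25a42 (-1.68) and Slc25a23 (-1.09) at the bottom and Slc25a32 (1.23) at the top are the called members, and the widest interval is that of Slc25a30.

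Non-overlapping libraries were more common than calls. Among the members tested, 8 had groups that did not overlap in RPKM, 7 lower in LYC (Slc25a1, Slc25a5, Slc25a16, Slc25a17, Slc25a23, Slc25a37 and Slc25a42) and 1 higher (Slc25a32). Of all genes tested, 37.4% did not overlap, 27.5% lower and 9.87% higher, so the direction of this count followed that of the table as a whole. After TMM scaling Slc25a17 no longer stood apart, while Slc25a3 did, with its LYC libraries higher. Among the members too low to be tested, Slc25a34 and Slc25a48 no longer stood apart on that scale, and Slc25a21 and Slc25a33 did, higher in LYC.

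A further 22 members were above 0 but had too few reads to be tested, with mean RPKM over the 6 libraries of at most 7.86 (Slc25a28). Among them Slc25a24, Slc25a34, Slc25a38, Slc25a45 and Slc25a48 were lower in every LYC library than in any HFD library, on 18 to 143 reads over the HFD libraries and 0 to 7 over the LYC libraries. Of the 15749 genes above 0 anywhere, 22.7% were lower in this way and 4.86% higher. Slc25a2, Slc25a18, Slc25a24, Slc25a31, Slc25a36 and Slc25a53 were at 0 in all LYC libraries but not in HFD. For each of them the HFD mean was below the upper limit that no reads among the 1117627 of the LYC libraries allow (3 reads), so a loss was not detectable at this depth. For Slc25a24, the closest, the HFD mean was 0.759 RPKM and that limit was 0.793 RPKM. No member was at 0 in HFD and above 0 in LYC.

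Genes that work beside the carriers were counted from lists of 47 genes, of which 39 were tested, 7 were called higher in LYC and 0 lower in limma, where 7.00% and 6.30% of all genes tested were. The split depended on the scaling, with 3 higher and 2 lower by library totals and 6 and 2 with TMM factors from all genes. Below an unadjusted limma p of 0.05, 12 were higher and 3 lower (Mtch1, Sfxn5 and Abcb10), where 15.0% and 14.9% of all genes tested were. Mtch1, an outer membrane protein of carrier fold, was at 21.5 ± 3.39 RPKM (SD, n = 3) in HFD and 8.58 ± 1.23 in LYC. It passed the p limit of a call but not the fold limit (log2 fold change -0.96, limma p 0.00746). Abcb10 passed the fold limit but not the p limit (log2 fold change -1.47, limma p 0.016). In edgeR and in DESeq2 on the recovered reads, 1 gene of the partner lists was called lower. Among 9 shuttle enzymes tested, 2 were called. Got1, the cytosolic aspartate aminotransferase, rose from 66.4 ± 18.8 to 200 ± 63.3 RPKM (log2 fold change 1.86, limma adjusted p 0.00396). Mdh1, the cytosolic malate dehydrogenase, rose from 245 ± 43.9 to 641 ± 126 RPKM (log2 fold change 1.68, limma adjusted p 0.00463). Their mitochondrial counterparts Got2 and Mdh2 were not called, with log2 fold changes of -0.10 and 0.60, nor were the carriers of the same shuttle, Slc25a11, Slc25a12 and Slc25a13, of which Slc25a12 was not tested. The difference between cytosolic enzymes and carriers was not tested.

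Among 16 other mitochondrial transport proteins tested, 3 were called higher. Over all genes tested 13.3% were called in either direction, so none of the counts of single lists is by itself a result about that list. Mpc2, a subunit of the pyruvate carrier, rose from 83.0 ± 9.54 to 156 ± 22.1 RPKM (log2 fold change 1.20, limma adjusted p 0.0130), while its partner subunit Mpc1 had a log2 fold change of 0.05. Vdac2, an outer membrane channel, rose from 27.9 ± 4.15 to 79.8 ± 27.8 RPKM (log2 fold change 1.72, limma adjusted p 0.0123). Micu2, a regulator of the calcium uniporter, had 12.5 ± 4.27 and 22.0 ± 7.57 RPKM with a log2 fold change of 1.04 and a limma adjusted p of 0.0603. Among 11 tested genes of the machinery that imports carriers, Timm10 and Timm10b, small chaperones of the intermembrane space, were called higher, with log2 fold changes of 1.28 and 1.52 and limma adjusted p of 0.0217 and 0.0529. Timm10 had a mean of 15.4 RPKM in HFD and 30.7 in LYC, on 23 reads in the LYC libraries. Timm10 passed the filter on low reads through the LYC libraries alone, where it was higher. With no filter, 6 genes of all partner lists were called higher instead of 7, and which gene differed is not given here. Of 3 tested genes with the carrier fold under other symbols limma called none, and Ucp1 and Ucp3 were at 0.

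What the members shared beyond the rule was limited. They were spread over 19 chromosomes with 4 on X, and the gene lengths behind the RPKM values of those above 0 ran from 1295 to 7133 bases with a median of 2609. Of the 46 members, 23 overlap another annotated gene. Slc25a42 and Slc25a32, with opposite changes, had lengths of 3172 and 2945 bases.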

How the data were processed

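Liver Ribo-seq libraries, 3 of HFD and 3 of LYC, were analysed, and 6 further libraries labelled RNA-seq were described only. RPKM per gene is what the authors deposited for Ribo-seq. Read counts beside RPKM were deposited by the authors for the libraries labelled RNA-seq. The study's methods name cutadapt and bowtie2 for cleaning, STAR on GRCm38/mm10 for alignment and FANSE2 for quantification, with versions and filters not given in the sources used here. No count column of the Ribo-seq libraries was used, since that table was given as RPKM.

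Of 25033 entries, 26 had names turned into dates and 4 sharing a name were left out. RPKM steps were turned into whole reads with the gene length implied by the second table (11129 genes) or an integer length fitted to the gene (4620 genes, among them 7 members). With these lengths, 100% of the values came out whole within 0.02 reads, which for genes with a fitted length is partly built in by the fit. With the second table's lengths alone this was 70.9% to 71.7% of a library's values. On genes passing edgeR's filterByExpr (5775), log2(RPKM / TMM factor + 1) was tested with limma with a mean-variance trend, two-sided, with Benjamini-Hochberg adjustment. A call needed an unadjusted p below 0.01 and a log2 fold change past 1 in either direction, as in the study's results, while its methods give 0.001. TMM factors ran from 0.801 to 1.26. On recovered reads edgeR's quasi-likelihood test called 890 genes and 3 members. Recovery and tests were also run on simulated data, with no outcome reported here.

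Values were given for called members and for other members with a mean of at least 20 RPKM, and the remaining members by range or reads, except 1 that is counted but not reported here. Genes of the partner lists were given values if called. Mtch1, Sfxn5, Abcb10, Got2, Mdh2, Mpc1, Slc25a25's share of its pair, and the 4 members whose ranges are given (Slc25a37, Slc25a44, Slc25a46, Slc25a51) went beyond that or were chosen after their values were seen. Members, roles and lists were chosen with earlier results of these data known. Coordinates and promoters are RefSeq's for GRCm38.p6, and overlaps are from GENCODE. Intervals cover 95%. Alternatives were other scalings, pseudocounts of 0.1 and 5, no filter, edgeR, DESeq2, a replicate block, a length correction, other limits and leaving out each library. Tests were run with limma 3.58.1, edgeR 4.0.16 and DESeq2 1.42.0 in R 4.3.3. Tables and plots were made with pandas 2.3.3, numpy 2.4.6 and matplotlib 3.10.9 in Python 3.11.15.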

Additional observations from a re-analysis of the deposited data

How the results depend on the processing

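With 311050 to 412116 reads in a LYC library, members of low level rested on few reads, and 22 members could not be tested. The number of members called was 1 with a pseudocount of 5 and 1 with p below 0.001, in each case Slc25a42. It ran from 1 (without HFD3) to 4 (without LYC3, with Slc25a44) when 1 library was left out, and was 2 or 3 elsewhere. With a pseudocount of 5 the log2 fold changes of Slc25a23 and Slc25a32 were -0.99 and 0.85. Calls among the partner lists numbered 4 with p below 0.001 and 4 to 8 with a library left out, the lowest without HFD1 or HFD2. Over all genes 768 were called, against 1153 with no filter (443 higher, 710 lower), 297 with p below 0.001, and 411 (without HFD3) to 1279 (without LYC3) with a library left out. Without HFD1 the number was 479 and without HFD2 it was 461. Scaling by library totals gave 235 higher and 651 lower with a median of -0.36, and TMM factors from all genes, chosen after seeing the data, gave 311 and 476 with a median of -0.23, where the test as reported gave 404 and 364 with -0.10. The members' median of -0.21 became -0.49 and -0.35 under these scalings, and calls in the partner lists became 3 higher and 2 lower, and 6 and 2. Without LYC1 the latter were 5 and 2. The sign of Slc25a13 turned with library totals (-0.24) and with TMM factors from all genes (-0.10), and with 1 library left out it ran from -0.06 (without HFD3) to 0.11 (without HFD2). Slc25a15 turned with the length trend removed (0.01) and ran from -0.16 to 0.02 (without HFD2), and Slc25a25 from -0.17 (without LYC2) to 0.77. Slc25a30 ran from -0.09 (without HFD2) to 0.87, and Slc25a47 turned with library totals (-0.09) and ran from -0.08 (without HFD1 or LYC2) to 0.38. The cause was not tested. Of 272 fits of the 17 members given by library, 251 left direction and call as they were. With the replicate block 737 genes were called, with 3 members and 6 genes of the partner lists among them. The numbers did not pair the libraries, since same-numbered deviations correlated at 0.108, 0.0262 and 0.0073.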

Other observations

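The libraries labelled RNA-seq followed the Ribo-seq libraries gene by gene, so they were kept out of the comparison. Whether both sets are the same libraries counted in another way was not tested. Their closest Ribo-seq library by log2 level was HFD2 for the one labelled HFD1 (r = 0.958 across genes, which are not independent replicates), HFD3 for HFD2 (0.952) and HFD1 for HFD3 (0.950). In LYC each was closest to the Ribo-seq library of its own number (0.928 to 0.932). Among members above 0 in either library of a pair, the read counts were equal in 28 of 34, 28 of 34 and 27 of 32 for LYC and in 9 of 43, 11 of 34 and 8 of 40 for HFD.

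The counts of all genes listed summed to 582184 to 687242 in the LYC libraries labelled RNA-seq. The RPKM of the LYC Ribo-seq libraries rested on totals of 311050 to 412116 reads. For Slc25a23 and Slc25a32 the RPKM in LYC differed between the tables by more than 1.5 times although the reads were the same. For a member with a fitted length, such as Slc25a23, the gene length can also differ between the tables. For Slc25a42 the libraries labelled RNA-seq had an RPKM of 39.9, 33.7 and 26.5 under HFD, against 4.68, 4.33 and 6.42 under LYC on 10, 8 and 14 reads. For Slc25a23 they had 71.3, 75.1 and 51.1 under HFD, against 9.66, 17.5 and 16.5 under LYC, where the same 23, 36 and 40 reads gave 17.3, 34.4 and 28.9 in the Ribo-seq table. Both carriers were lower without overlap in these libraries, but on the same or similar numbers of reads in LYC, so this is no separate evidence. The share of all genes lower in this way there was not computed. For Slc25a32 they had 6.53, 4.64 and 4.22 under HFD, against 6.05, 7.58 and 5.93 under LYC, where the same 12, 13 and 12 reads gave 10.3, 14.2 and 9.89 in the Ribo-seq table. The groups overlapped, so Slc25a32 stood apart in the Ribo-seq table only. These RPKM were not scaled further or tested, and no translational efficiency of the carriers was computed.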
